A study of Drosophila melanogaster with 10 samples.

Results

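Oxidative phosphorylation subunits are the nuclear-encoded proteins of the respiratory chain and of ATP synthase in the inner mitochondrial membrane. A list of 49 gene symbols, chosen by name from these complexes by a rule that uses no expression value, though with earlier results of these data known, was looked up in an RNA-seq data set of whole fruit fly larvae, and 43 of them were found among 13995 genes. Of the 43 members, 20 belong to complex I, 1 to complex II, 6 to complex III, 4 to complex IV with cytochrome c, and 12 to complex V. The listed symbols CG13240, CG9762, Scs-fp, CoIV, CoVb and CoVIb were not matched to a record and were not analysed here.

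The animals were male Drosophila melanogaster larvae of the 3rd instar, raised at 25 °C, and total RNA of the whole body was sequenced. The control genotype was y w, and all 4 other genotypes were on the y w background and carried atf3[76]. They were atf3[76] alone, atf3[76];;dfoxo[25J13]/+, atf3[76];;rel[E20]/+ and atf3[76];;atf3[A]/+, the last 3 written below as dfoxo/+, rel/+ and atf3[A]/+. Each genotype had 2 libraries, called replicate 1 and replicate 2. The series' design calls them biological replicates and does not say how many larvae or cultures each one drew on, so p-values here reflect differences between libraries that may be partly technical. The labels do not give the lesions of the alleles or say what atf3[A] is. The gene Atf3 is listed on the X chromosome and foxo and Rel on 3R, while atf3[A] stands in the label where dfoxo[25J13] and rel[E20] do. A second allele below therefore means only a further element named in the label. Whether atf3[A] impairs or adds Atf3 function is not stated.

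In oxidative phosphorylation, complexes I and II pass electrons from NADH and succinate to ubiquinone, complex III passes them on to cytochrome c, and complex IV passes them to oxygen. Complexes I, III and IV pump protons as they do so, and complex V lets the protons flow back to make ATP. Most subunits are encoded in the nucleus and imported, and a core set is encoded by mitochondrial DNA. In larvae, muscle, gut, fat body and the growing imaginal tissues all depend on these complexes. Atf3 is a basic leucine zipper transcription factor, Relish is the transcription factor activated by the Imd pathway in immunity, and FOXO is a forkhead factor that insulin keeps out of the nucleus.

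Expression was given as FPKM, a fragment count scaled to transcript length and to the mapped fragments of the library, and 1 was the lowest value listed, so it marks a floor. Both y w replicate 1 and atf3[76] replicate 1 were richer in floor values than the rest. Among genes whose median in the other libraries reached 10 FPKM, 3.84% and 4.54% stood at 1, against 0.136% to 1.27% in the remaining 8 libraries. Read depth is not given, and no counting error can be put on a value. The gene Atf3, listed as A3-3, stood at 3.28 and 4.14 FPKM in y w and between 6.09 and 15.1 in the 8 libraries with atf3[76], and gene-level values such as these cannot check a label whose lesion is not given. The genes foxo and Rel stood at 8.69 and 6.86 FPKM in dfoxo/+ and at 16.7 and 13.3 in rel/+, against 1 and 7.64 for foxo and 14.2 and 10.3 for Rel in y w. With atf3[76] alone, foxo had 4.30 and 8.73 FPKM and Rel 21.4 and 21.0, so Rel was lower in both rel/+ libraries than in both of atf3[76].

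Members were among the well-expressed genes of the larva. Leaving out Oscp, which is described on its own below, the mean level in y w ran from 44.6 FPKM to 520 FPKM, with a median over 42 members of 80.7. Levels differed by complex on this per-length scale. The 7 core subunits of complex I lay between 46.8 and 58.9 FPKM in y w, and the 3 cytochrome c oxidase subunits between 134 and 254. The highest members, ATPsyn-beta and CG1746, belong to complex V, whose rotor and catalytic head hold several copies of some subunits.

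**Figure D1:**
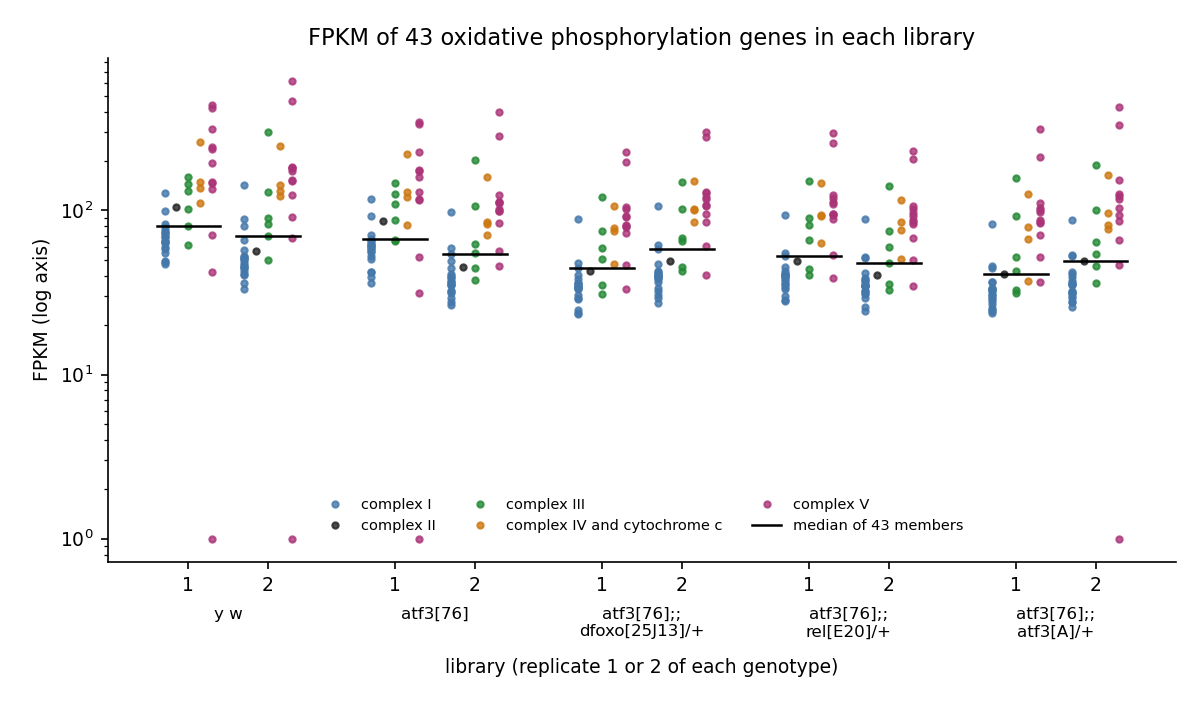
FPKM (log axis) of the 43 members in the 10 libraries, 2 per genotype, each point a gene coloured by complex and each bar the median of the 43. The medians are highest in y w, at 80.9 and 70.2, and lie between 41.0 and 57.9 in the 6 libraries with a second allele. The points at 1 are Oscp.

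Summed over the 43 members, FPKM was lower in every library with atf3[76] than in both y w libraries. The sums were 5229 and 4933 in y w, 4323 and 3407 in atf3[76], 2663 and 3396 in dfoxo/+, 3237 and 2767 in rel/+, and 2798 and 3391 in atf3[A]/+. The atf3[76] mean was 76.1% of the y w mean, and the means of the other 3 genotypes were 59.6%, 59.1% and 60.9% of it. Replicate 1 of atf3[76] lay between y w and all other libraries, while its replicate 2 lay close to the highest libraries with a second allele. In bulk samples, fewer cells rich in mitochondria and less RNA per cell cannot be told apart.

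Each complex had a lower sum in the genotypes with atf3[76]. Without Oscp, the sum for complex V was 2388 and 2395 FPKM in y w, 1866 and 1530 with atf3[76] alone, 1129 and 1476 in dfoxo/+, 1391 and 1159 in rel/+, and 1266 and 1669 in atf3[A]/+. Complex I had 1398 and 1116 FPKM in y w, 1219 and 823 with atf3[76] alone, and between 685 and 867 in the 6 libraries with a second allele. For complex I, replicate 1 of atf3[76] thus lay above replicate 2 of y w, and the 6 libraries with a second allele did not overlap with y w. Complex III had 680 and 722 FPKM in y w and 372 to 489 with a second allele, and complex IV with cytochrome c had 658 and 643 in y w and 306 to 438 with a second allele.

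**Figure D2:**
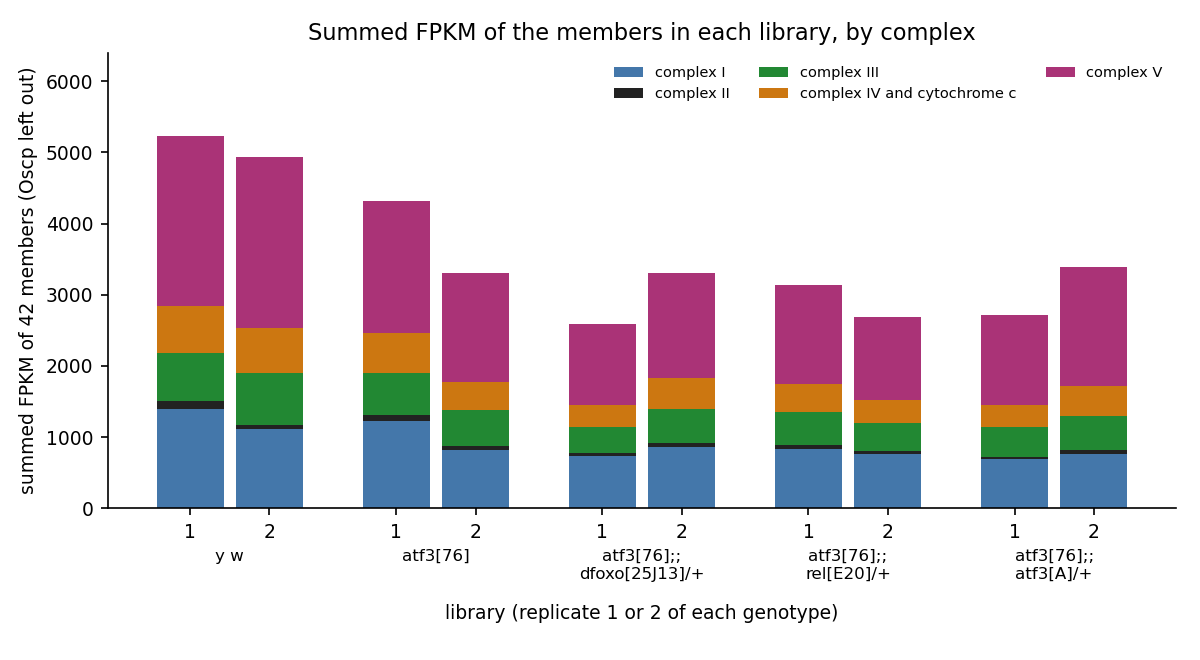
Summed FPKM of 42 members in each of the 10 libraries, stacked by complex, with Oscp left out because it is listed at the floor in 4 libraries. The y w bars, at 5228 and 4932, are higher than all others, and atf3[76] replicate 1 follows at 4322.

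The comparisons with y w ask what atf3[76], alone or with a second allele, does to transcript levels. All 4 use the same y w libraries. Differences are on the log2(FPKM + 1) scale, tested with limma over all genes that passed the floor of 1 in any library compared, and a gene was called at a Benjamini-Hochberg adjusted p under 0.05. Below y w were 42 of 43 members in atf3[76], where 29.9% of all 10983 genes tested lay below. The median difference of the members was −0.35, and that of all genes was 0.11. In dfoxo/+ 42 members lay below y w (21.1% of all genes), with a median of −0.70 against 0.32 over all genes. In rel/+ 42 members lay below (18% of all genes), with a median of −0.67 against 0.40. In atf3[A]/+ 41 members lay below (49.4% of all genes), with a median of −0.78 against 0.01. With each library centred on the median gene, the member medians were −0.49, −1.03, −1.06 and −0.78 in the same order.

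No member was called lower in any of the 4 comparisons, and in atf3[76] and atf3[A]/+ none was called higher, where 0.0091% and 0.307% of all genes were. In the limma test, 0.0273%, 0.00887%, 0.0264% and 0.0632% of all genes were called lower in atf3[76], dfoxo/+, rel/+ and atf3[A]/+. The lowest adjusted p among members below y w was 1.00 in atf3[76], 0.206 in dfoxo/+ (CoVa), 0.150 in rel/+ (CG4769) and 0.592 in atf3[A]/+ (ATPsyn-d). At an unadjusted p under 0.05, 1 member was lower in atf3[76] where 0.674% of all genes were, 20 in dfoxo/+ (2.35% of all genes), 25 in rel/+ (3.02%) and 23 in atf3[A]/+ (3.78%). Without y w replicate 1 these counts were lower in each genotype. The member medians then were −0.25, −0.55, −0.54 and −0.65, against 0.24, 0.43, 0.51 and 0.11 over all genes. The counts were also lower without either library of dfoxo/+, rel/+ or atf3[A]/+. Without replicate 1 or 2 the member medians were −0.57 and −0.84 in dfoxo/+, −0.73 and −0.59 in rel/+, and −0.66 and −0.90 in atf3[A]/+.

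How often the libraries of a genotype stood apart from y w was counted without a test. In atf3[76], both libraries lay below both y w libraries for 19 of 43 members, where 5.73% of all genes did. In dfoxo/+ the count was 41 of 43 (9.3% of all genes), in rel/+ 41 (8.72%) and in atf3[A]/+ 38 (17.6%). Across the 6 libraries with a second allele, all lay below both y w libraries for 38 members and for 5.91% of all genes. The highest of the 10 libraries was y w replicate 1 for 29 members and y w replicate 2 for 13, and Oscp was the exception. The lowest was atf3[A]/+ replicate 1 for 21 members and dfoxo/+ replicate 1 for 15.

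**Figure D3:**
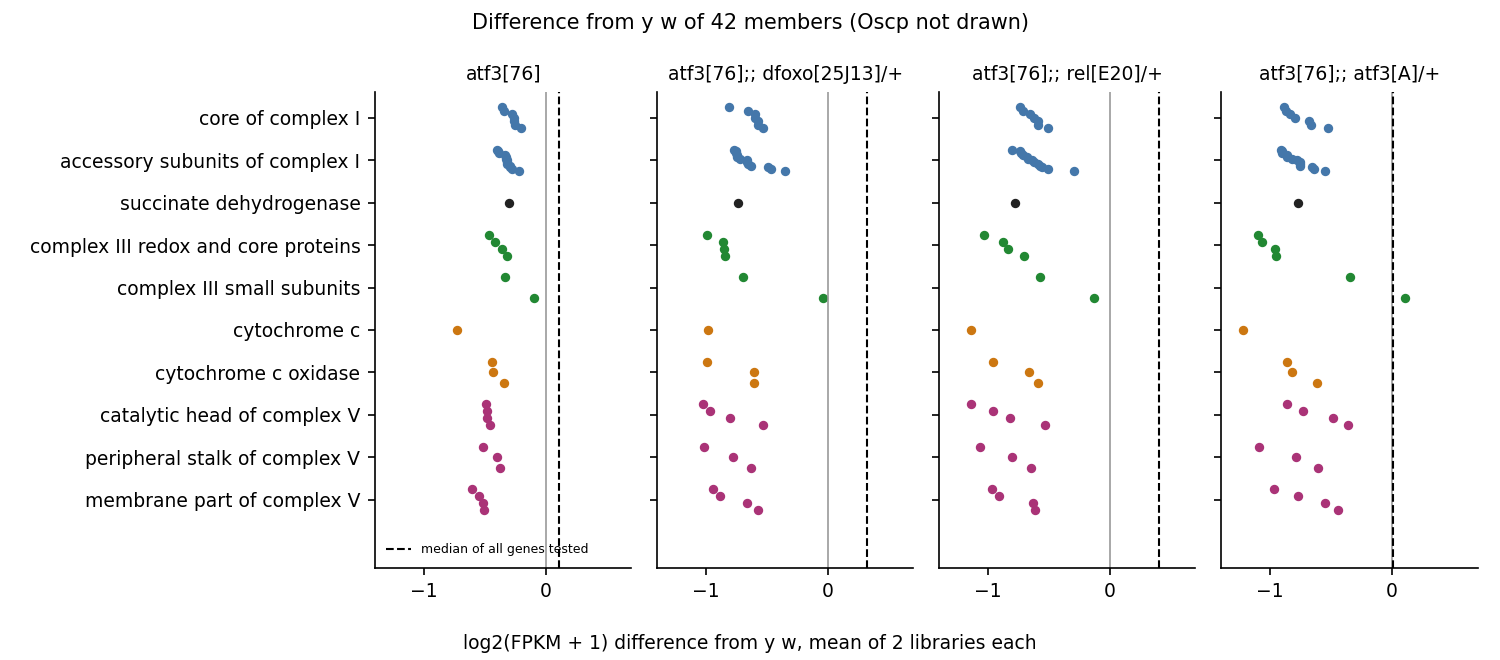
Difference from y w of 42 members on the log2(FPKM + 1) scale, 1 panel per genotype and 1 row per functional group, each point a gene. The row of the catalytic head of complex V includes the central stalk. The dashed line is the median of all genes tested, at 0.11, 0.32, 0.40 and 0.01 from left to right. Nearly all points lie left of 0; ox, a small subunit of complex III, is the member nearest to 0 or right of it in each panel.

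The authors' deposited tables carry a fold change score and a call for each record, by a rule not given in the sources used here. Members called down all had a score of −1.50 or beyond, and members called not changed had none beyond −1.49. These calls draw on the same libraries as the limma test and are no separate support. In the authors' deposited table for atf3[76], 2 members were called down, Cyt-c-p at −1.67 and CG4692 at −1.50, where 1.24% of all records were called down. The authors' deposited tables called 36 members down in dfoxo/+ (3.17% of records), 36 in rel/+ (3.55%) and 34 in atf3[A]/+ (6.41%). The most negative fold change scores of members called down in the authors' deposited tables were −2.11 and −2.27 for blw in dfoxo/+ and rel/+, and −2.25 for CG4169 in atf3[A]/+. Oscp was the 1 member called up in the authors' deposited tables, in dfoxo/+ (21.9% of records) and rel/+ (28.6%).

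Complex I, the NADH dehydrogenase, was represented by 7 core subunits, which carry the flavin and iron-sulphur centres, and 13 accessory subunits around them. All 20 lay below y w in all 4 comparisons. The median difference was −0.32 in atf3[76], −0.65 in dfoxo/+, −0.63 in rel/+ and −0.79 in atf3[A]/+. Both libraries lay below both of y w for 7 of the 20 members in atf3[76] and for 20 of 20 in each of the other genotypes (5.73% of all genes, then 9.3%, 8.72% and 17.6%). At an unadjusted p under 0.05, 0, 7, 9 and 12 of them were lower (0.674%, 2.35%, 3.02% and 3.78% of all genes), and 0 were called (limma).

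Among complex I members, CG10320, an accessory subunit currently named ND-B12, had the highest level. It stood at 128 and 143 FPKM in y w, 118 and 98.4 with atf3[76] alone, 89.0 and 107 in dfoxo/+, 94.4 and 88.2 in rel/+, and 83.0 and 87.3 in atf3[A]/+. Both y w libraries were above all others. Pdsw, another accessory subunit, had 98.7 and 80.7 FPKM in y w, 92.5 and 54.2 with atf3[76] alone, 47.6 and 57.9 in dfoxo/+, 55.1 and 51.7 in rel/+, and 44.5 and 53.3 in atf3[A]/+. Replicate 1 of atf3[76] lay between the y w libraries and replicate 2 did not, so these groups overlap, while the 6 libraries with a second allele lay below y w. Its differences from y w were −0.33 ± 0.36 (SE, n = 2 each), −0.75 ± 0.24, −0.73 ± 0.20 and −0.86 ± 0.27 in the usual order (limma, adjusted p = 1.00, 0.237, 0.159 and 0.606).

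The largest mean differences in complex I were those of CG3621 and CG6020, both accessory subunits. CG3621 had 74.1 and 51.6 FPKM in y w, 66.2 and 36.8 with atf3[76] alone, 33.9 and 38.8 in dfoxo/+, 35.7 and 34.5 in rel/+, and 29.8 and 35.5 in atf3[A]/+. CG6020 had 82.8 and 49.9 FPKM in y w, 70.9 and 36.8 with atf3[76] alone, 34.7 and 40.0 in dfoxo/+, 42.8 and 35.2 in rel/+, and 32.7 and 35.3 in atf3[A]/+. In both genes replicate 1 stood far above replicate 2 within y w and within atf3[76], and atf3[76] overlapped with y w. In atf3[A]/+ their differences were −0.91 ± 0.30 and −0.90 ± 0.33 (SE, n = 2 each; limma, adjusted p = 0.621 and 0.639).

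The smallest mean difference in complex I was that of CG8680, an accessory subunit. It had 49.2 and 46.3 FPKM in y w, 41.9 and 35.6 with atf3[76] alone, 34.3 and 40.0 in dfoxo/+, 39.7 and 37.9 in rel/+, and 32.5 and 32.0 in atf3[A]/+. The y w libraries agreed closely and all 8 others lay below them. CG7712, the member of lowest mean level over the 10 libraries, had 47.3 and 42.8 FPKM in y w, 35.9 and 32.2 with atf3[76] alone, 23.8 and 29.5 in dfoxo/+, 28.0 and 31.2 in rel/+, and 24.7 and 27.8 in atf3[A]/+. Here too every library with atf3[76] lay below both of y w. With the mean of the 4 genotypes with atf3[76] set against y w, a contrast chosen after seeing the data, CG7712 had the lowest adjusted p of any member, with a difference of −0.62 ± 0.13 (SE; limma, adjusted p = 0.115), and in that contrast 0 members were called lower (0.0865% of all genes) and 34 were lower at an unadjusted p under 0.05 (4.65%).

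Complex II, succinate dehydrogenase, also acts in the citric acid cycle and was represented by SdhB, its iron-sulphur subunit. SdhB had 105 and 56.9 FPKM in y w, 85.9 and 45.1 with atf3[76] alone, 42.95 and 49.1 in dfoxo/+, 49.3 and 40.4 in rel/+, and 41.0 and 49.2 in atf3[A]/+. The y w libraries differed more from each other than y w replicate 2 did from any library with a second allele. The differences were −0.30 ± 0.48, −0.74 ± 0.35, −0.78 ± 0.36 and −0.77 ± 0.37 (SE, n = 2 each; limma, adjusted p = 1.00, 0.320, 0.236 and 0.705).

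Complex III, the cytochrome bc1 complex, was divided between its redox and core proteins and its small subunits. The former are RFeSP (the Rieske iron-sulphur protein), CG4769 (cytochrome c1) and the core proteins CG4169 and CG3731. Their median difference was −0.39 in atf3[76], −0.85 in dfoxo/+, −0.85 in rel/+ and −1.01 in atf3[A]/+. The small subunits CG3560 and ox lay closer to y w, with medians of −0.22, −0.37, −0.35 and −0.12. The difference between these groups of members was not tested.

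CG4769 had 80.9 and 70.2 FPKM in y w, 65.5 and 44.8 with atf3[76] alone, 31.1 and 45.0 in dfoxo/+, 40.3 and 32.8 in rel/+, and 32.6 and 45.8 in atf3[A]/+. Both y w libraries were above all 8 others, and the genotypes with a second allele stood at 50.4% of the y w mean in dfoxo/+, 48.4% in rel/+ and 51.9% in atf3[A]/+. The differences were −0.47 ± 0.31, −0.99 ± 0.27, −1.03 ± 0.21 and −0.95 ± 0.29 (SE, n = 2 each; limma, adjusted p = 1.00, 0.213, 0.150 and 0.606). CG3731 had 131 and 82.3 FPKM in y w, 109 and 55.4 with atf3[76] alone, 50.7 and 64.8 in dfoxo/+, 65.9 and 48.1 in rel/+, and 42.8 and 54.0 in atf3[A]/+. Its y w libraries stood apart, and atf3[76] replicate 1 lay between them, so these groups overlapped.

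The small subunits showed the reverse order of the y w libraries. CG3560 had 159 and 300.1 FPKM in y w, 147 and 204 with atf3[76] alone, 121 and 149 in dfoxo/+, 152 and 141 in rel/+, and 158 and 188 in atf3[A]/+. Replicate 2 of y w was highest, and replicate 1 of y w was overlapped by atf3[76] and atf3[A]/+. The gene ox had 61.9 and 129.8 FPKM in y w, 65.8 and 107 with atf3[76] alone, 75.4 and 101 in dfoxo/+, 90.0 and 74.6 in rel/+, and 92.9 and 101 in atf3[A]/+. For ox all genotypes overlapped with y w, and its differences of −0.10 ± 0.48, −0.04 ± 0.42, −0.13 ± 0.41 and 0.11 ± 0.41 were the smallest of any member (SE, n = 2 each; limma, adjusted p = 1.00, 0.959, 0.833 and 0.965). The difference in dfoxo/+ turned to 0.055 after quantile normalization, and without y w replicate 2 the difference was above 0 in all 4 genotypes.

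Electrons reach complex IV through cytochrome c, encoded by Cyt-c-p in most cells. Cyt-c-p had the most negative mean difference of all members. Its FPKM was 111 and 142 in y w, 81.2 and 70.6 in atf3[76], 47.0 and 84.5 in dfoxo/+, 63.6 and 50.7 in rel/+, and 37.0 and 77.3 in atf3[A]/+. All 8 libraries with atf3[76] lay below both y w libraries, and the libraries of dfoxo/+ and of atf3[A]/+ were far apart. The differences were −0.73 ± 0.28, −0.99 ± 0.35, −1.13 ± 0.24 and −1.22 ± 0.42 (SE, n = 2 each; limma, adjusted p = 1.00, 0.263, 0.150 and 0.622).

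The 3 cytochrome c oxidase members, CoVa, cype and levy, are small nuclear-encoded subunits around the catalytic core. CoVa had 261 and 247 FPKM in y w, 219.8 and 159 with atf3[76] alone, 107 and 151 in dfoxo/+, 146 and 117 in rel/+, and 125 and 164 in atf3[A]/+. The y w libraries agreed closely and all others were lower. Its differences were −0.44 ± 0.29, −0.99 ± 0.25, −0.95 ± 0.21 and −0.82 ± 0.27 (SE, n = 2 each; limma, adjusted p = 1.00, 0.206, 0.151 and 0.621). The gene cype had 136 and 131 FPKM in y w, 129 and 85.1 with atf3[76] alone, 75.04 and 102 in dfoxo/+, 92.2 and 76.4 in rel/+, and 78.9 and 96.1 in atf3[A]/+. It showed the same order, with atf3[76] replicate 1 close to y w. For levy the mean was 75.1% of y w in atf3[76], 65.6% in dfoxo/+, 66.0% in rel/+ and 54.7% in atf3[A]/+.

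Complex V, the ATP synthase, has a catalytic head (blw and ATPsyn-beta) with a central stalk (ATPsyn-gamma and sun). It also has a peripheral stalk that holds the head in place, and a membrane part with the rotating ring of c subunits. The median difference over its 12 members was −0.49 in atf3[76], −0.79 in dfoxo/+, −0.81 in rel/+ and −0.67 in atf3[A]/+. The catalytic head and central stalk together had −0.48, −0.88, −0.89 and −0.61 in the same order. Both libraries lay below both of y w for 7 of the 12 members in atf3[76], 11 in dfoxo/+, 11 in rel/+ and 9 in atf3[A]/+, where 5.73%, 9.3%, 8.72% and 17.6% of all genes did.

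ATPsyn-beta, the catalytic subunit, had 421 and 619 FPKM in y w, 336 and 396 with atf3[76] alone, 226 and 302 in dfoxo/+, 296 and 231 in rel/+, and 315 and 424 in atf3[A]/+. All libraries of dfoxo/+, rel/+ and atf3[76] lay below y w, and atf3[A]/+ replicate 2 lay just above y w replicate 1. The mean was 70.4% of y w in atf3[76], 50.8% in dfoxo/+, 50.7% in rel/+ and 71.1% in atf3[A]/+. The gene blw, which encodes the alpha subunit beside it, had 312 and 182 FPKM in y w, 228 and 125 with atf3[76] alone, 105 and 129 in dfoxo/+, 124 and 92.8 in rel/+, and 111 and 153 in atf3[A]/+. Its atf3[76] replicate 1 lay between the y w libraries and the 6 libraries with a second allele below both. Its differences were −0.49 ± 0.45, −1.03 ± 0.33, −1.14 ± 0.35 and −0.86 ± 0.37 (SE, n = 2 each; limma, adjusted p = 1.00, 0.242, 0.166 and 0.670).

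CG1746, the c subunit of the rotor ring, had 439 and 465 FPKM in y w, 347 and 286 with atf3[76] alone, 198 and 278 in dfoxo/+, 259 and 205 in rel/+, and 211 and 331 in atf3[A]/+. The y w libraries agreed closely and all 8 others were below them. Its differences were −0.52 ± 0.26, −0.94 ± 0.25, −0.97 ± 0.21 and −0.77 ± 0.32 (SE, n = 2 each; limma, adjusted p = 1.00, 0.214, 0.151 and 0.657). The gene sun, the epsilon subunit and the member of lowest level in complex V, had 42.03 and 67.7 FPKM in y w, 31.5 and 45.6 with atf3[76] alone, 33.4 and 40.1 in dfoxo/+, 38.5 and 34.7 in rel/+, and 36.7 and 46.6 in atf3[A]/+. Replicate 1 of y w was overlapped by atf3[76] and atf3[A]/+ but by neither dfoxo/+ nor rel/+.

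The peripheral stalk held both the member of most negative mean difference in complex V and the 1 member that was called. ATPsyn-d had 236 and 153 FPKM in y w, 176 and 99.1 with atf3[76] alone, 82.1 and 106 in dfoxo/+, 95.0 and 85.4 in rel/+, and 83.7 and 93.9 in atf3[A]/+. The 6 libraries with a second allele lay below both y w libraries and close together. Its differences were −0.52 ± 0.41, −1.02 ± 0.30, −1.07 ± 0.28 and −1.09 ± 0.31 (SE, n = 2 each; limma, adjusted p = 1.00, 0.232, 0.155 and 0.592).

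Oscp (3R, 11091297 to 11092412, BDGP R5) encodes the stalk subunit that grips the top of the catalytic head. Its values were 1 and 1 FPKM for y w, 1 and 99.5 for atf3[76], 80.4 and 95.2 in dfoxo/+, 94.1 and 82.8 in rel/+, and 87.4 and 1 in atf3[A]/+. It was thus at the floor in 4 libraries of 3 genotypes and between 80.4 and 99.5 FPKM in the other 6. Oscp was called higher in dfoxo/+ (limma, adjusted p = 0.0168; 0.195% of all genes were called higher) and in rel/+ (adjusted p = 0.0124; 0.511% of all genes), and a log2 difference from a group at the floor measures no fold. In these comparisons Oscp passed the floor only through dfoxo/+ or rel/+, and its y w values were tied at 1. The adjusted p is thus set in part by the floor, and the call is no support for a difference. The call was lost without y w replicate 1 (adjusted p = 0.118 and 0.0992), without either library of dfoxo/+ or rel/+ (adjusted p between 0.373 and 0.864), and with all 5 groups in one model (adjusted p = 0.259 and 0.187).

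Oscp overlaps CG14864 (3R, 11092405 to 11094260) by 8 bases. CG14864 was listed at 1 in the same 4 libraries and in no other, and at 1.65 to 3.38 FPKM in the other 6. In those 6 libraries the level of Oscp was 0.888 to 1.03 times that of ATPsyn-Cf6, another stalk subunit. ATPsyn-Cf6 itself was far from the floor in all 10 libraries, with a mean of 143 FPKM in y w, 108 in atf3[76], 93.2 in dfoxo/+, 91.2 in rel/+ and 94.2 in atf3[A]/+. Whether the floor values of Oscp come from its own transcript or from how the overlapping pair was quantified was not tested.

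**Figure D4:**
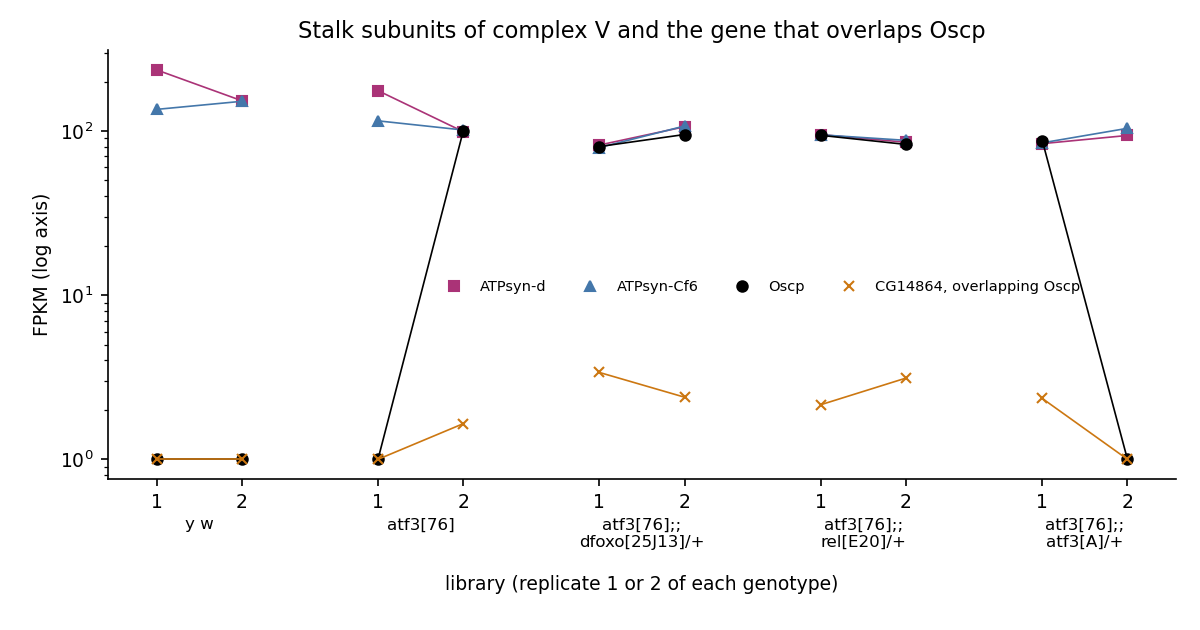
FPKM (log axis) of Oscp, of the stalk subunits ATPsyn-d and ATPsyn-Cf6 and of CG14864 in the 10 libraries, with lines joining the 2 libraries of a genotype. Oscp sits at 1 in both y w libraries, atf3[76] replicate 1 and atf3[A]/+ replicate 2, exactly where CG14864 does, and between 80.4 and 99.5 elsewhere.

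Genotypes with a second allele were also set against atf3[76] alone, in one limma model of all 5 groups. In dfoxo/+ 41 of 43 members lay below atf3[76] (28% of all genes), with a median difference of −0.34 against 0.16 over all genes. In rel/+ 41 lay below (21.6% of all genes), with −0.36 against 0.24, and in atf3[A]/+ 39 (61.4% of all genes), with −0.41 against −0.10. Called lower were 0 members in each, where 0.00865%, 0.00865% and 0.026% of all genes were, called higher were also 0, where 0.0433%, 0.0779% and 0.0519% were, and the lowest adjusted p was 0.656, 0.485 and 0.584. At an unadjusted p under 0.05 the counts were 0, 0 and 2, the last being ND23, a core subunit, and CG3683, an accessory subunit of complex I (0.969%, 1.08% and 6.54% of all genes). Both libraries lay below both of atf3[76] for 7 members in dfoxo/+ (6.5% of all genes), 17 in rel/+ (5.55%) and 21 in atf3[A]/+ (23.9%).

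These differences rested on the spread within atf3[76]. Without its replicate 1 the member medians against atf3[76] were −0.08 in dfoxo/+, −0.10 in rel/+ and −0.14 in atf3[A]/+. Without its replicate 2 they were −0.60, −0.62 and −0.71. Against y w, the atf3[76] median was −0.66 without its replicate 1 and −0.11 without its replicate 2, when 27 of 42 members lay below y w.

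Within a genotype, most members differed in the same direction between the libraries. On a log2 scale, replicate 1 lay above replicate 2 by a median of 0.27 over 42 members in y w and 0.58 in atf3[76], and by 0.16 in rel/+, while the median was −0.31 in dfoxo/+ and −0.24 in atf3[A]/+. Over the 8821 genes above the floor in all 10 libraries, the medians were 0.36 in y w, −0.05 in atf3[76], −0.07 in rel/+, 0.14 in dfoxo/+ and 0.35 in atf3[A]/+. In y w the members thus shifted less than those genes did, and in the other 4 genotypes the members lay on the other side of 0 from them. Replicate 1 was higher for 29 of 42 members in y w, 36 in atf3[76], 41 in rel/+, 0 in dfoxo/+ and 1 in atf3[A]/+. In y w this ratio followed transcript length: the median was 0.07 for the 20 shorter and 0.53 for the 20 longer of the 40 members with an annotated length. In atf3[76] it was 0.25 and 0.67. The medians of shorter and longer members were 0.11 and 0.29 in rel/+, −0.32 and −0.25 in dfoxo/+, and −0.23 and −0.25 in atf3[A]/+. Without both libraries rich in floor values, the member medians against y w were −0.50, −0.55, −0.54 and −0.65.

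Members of high level had more negative differences than members of low level in atf3[76], dfoxo/+ and rel/+, and not in atf3[A]/+. Among 42 members ordered by their mean in y w, the 14 highest (134 FPKM to 520 FPKM) had a median difference of −0.45 in atf3[76], −0.79 in dfoxo/+ and −0.81 in rel/+. The 14 lowest (44.6 to 62.0 FPKM) had −0.29, −0.60 and −0.59. In atf3[A]/+ the medians were −0.75 and −0.75. These groups were not tested against each other, and they share the y w libraries that set the order.

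Subunits of the same complexes outside the list of members were looked up by name, and 19 of 22 were found. Their median difference was −0.34 in atf3[76], −0.65 in dfoxo/+, −0.65 in rel/+ and −0.68 in atf3[A]/+, and 0, 10, 10 and 10 were lower at an unadjusted p under 0.05 (0.674%, 2.35%, 3.02% and 3.78% of all genes), with 0 called (limma). CG7580, a small subunit of complex III, had 322 and 205 FPKM in y w, 206 and 144 with atf3[76] alone, 84.8 and 127 in dfoxo/+, 116 and 106 in rel/+, and 97.9 and 137 in atf3[A]/+. Replicate 1 of atf3[76] lay level with y w replicate 2, and the 6 libraries with a second allele lay below both of y w. CG34423 of the same list, whose part in a complex is not given here, stood in the reverse order. It had a mean of 12.4 FPKM in y w and 19.3 to 28.8 in the 6 libraries with a second allele. Of 13 mitochondrially encoded subunits looked up, 0 matched a record and none was analysed here.

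Several subunits have a paralogue, a second gene for the same position in a complex. The best known is Cyt-c-d, the other cytochrome c gene, studied for its part in sperm cell formation. Cyt-c-d had 15.0 and 11.1 FPKM in y w, 9.88 and 15.5 with atf3[76] alone, 25.2 and 20.6 in dfoxo/+, 18.8 and 27.9 in rel/+, and 13.5 and 6.95 in atf3[A]/+. It was thus highest in dfoxo/+ and rel/+, and differed from y w by 0.78 ± 0.25 and 0.78 ± 0.29 (SE, n = 2 each; limma, adjusted p = 0.245 and 0.197). The median difference over all genes was 0.32 and 0.40 in these comparisons. Cyt-c-p was as low in atf3[A]/+, with a mean of 57.1 FPKM, as in rel/+, with 57.1, while Cyt-c-d was not above y w in atf3[A]/+. The level of Cyt-c-p was 9.73 times that of Cyt-c-d in y w, 5.98 times in atf3[76], 2.87 times in dfoxo/+, 2.45 times in rel/+ and 5.59 times in atf3[A]/+. In single libraries the ratio was 7.43 and 12.8 in y w, 8.22 and 4.55 with atf3[76] alone, 1.87 and 4.09 in dfoxo/+, 3.39 and 1.82 in rel/+, and 2.74 and 11.1 in atf3[A]/+. Both libraries of dfoxo/+ and of rel/+ lay below y w, while atf3[76] and atf3[A]/+ each had 1 library within the y w range, and no test was made of the ratio.

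**Figure D5:**
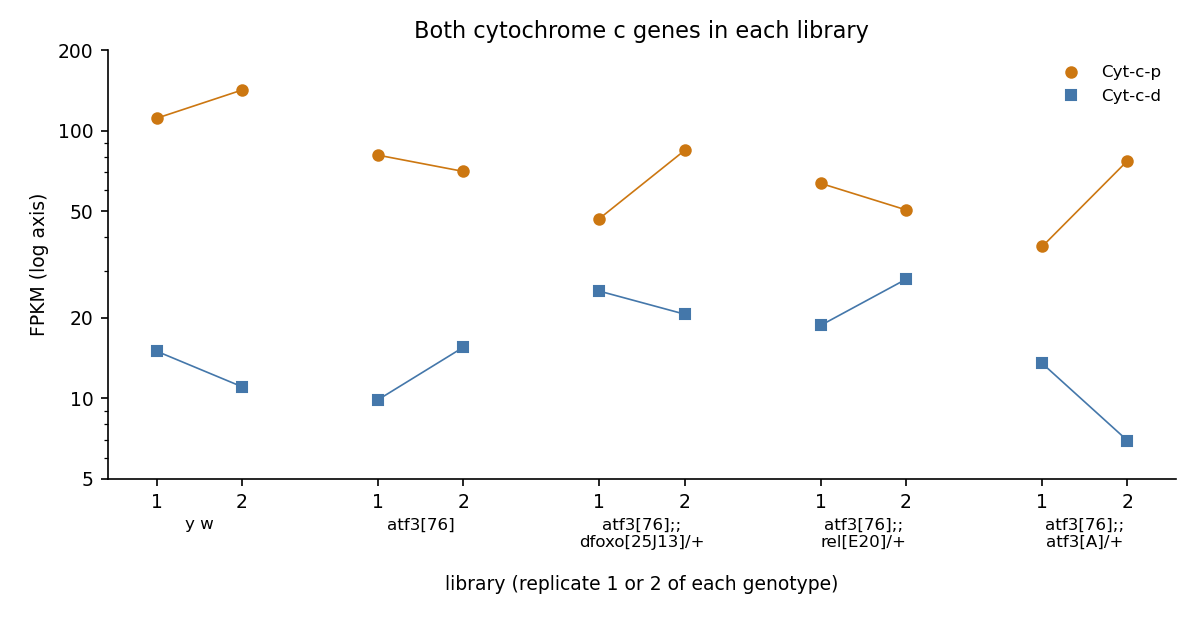
FPKM (log axis) of Cyt-c-p and Cyt-c-d in the 10 libraries, with lines joining the 2 libraries of a genotype. Cyt-c-p is highest in y w, at 111 and 142, and Cyt-c-d is highest in dfoxo/+ and rel/+, between 18.8 and 27.9.

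The paralogues as a list stood as Cyt-c-d did. Of 22 looked up, 20 were found, and their median difference from y w was 0.05 in atf3[76], 0.67 in dfoxo/+, 0.72 in rel/+ and −0.36 in atf3[A]/+. Both libraries lay above both of y w for 0, 18, 16 and 0 of the 20, where 16.8%, 48.2%, 56.6% and 18.2% of all genes did. At an unadjusted p under 0.05, 0, 7, 8 and 0 of them were higher (2.89%, 15.8%, 22.4% and 3.92% of all genes), and 0 were called (limma). ATPsyn-beta stood at 66.9 times its paralogue CG5389 in y w, 57.8 times in atf3[76], 33.9 times in dfoxo/+, 28.3 times in rel/+ and 76.4 times in atf3[A]/+. Single libraries were far apart, at 44.9 and 101 times in y w and 50.05 and 125 times in atf3[A]/+, and the higher dfoxo/+ library, at 43.7 times, was level with the lower one of y w.

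Testis markers stood in the same order of genotypes as these paralogues. The summed FPKM of 10 testis marker genes was 160 and 130 in y w, 119.5 and 200.5 in atf3[76], 298 and 249.9 in dfoxo/+, 233 and 323 in rel/+, and 152 and 86.9 in atf3[A]/+, and 0 of the 10 had a difference below 0 in dfoxo/+ or in rel/+, where 21.1% and 18% of all genes did. Their part in the paralogue values was not tested. Larval muscle, a tissue rich in mitochondria, was read from 9 markers, of which Mhc, up and wupA were listed at 1 in all libraries. The sum over the 9 was 3739 and 4216 FPKM in y w, 3382 and 4040 with atf3[76] alone, 2504 and 3055 in dfoxo/+, 3463 and 2495 in rel/+, and 2734 and 3723 in atf3[A]/+. The 6 muscle markers tested had medians of −0.06, −0.31, −0.22 and −0.11, and their part in the members' differences was not tested. The sum of 8 midgut markers was 8976 and 6617 FPKM in y w, 3297 and 1405 with atf3[76] alone, 5651 to 7660 in dfoxo/+ and rel/+, and 2172 and 2185 in atf3[A]/+. The midgut markers had medians of −0.46, −0.35, −0.11 and −0.66 against y w, with 5, 5, 4 and 5 of the 8 below 0. Of them, 1 was called lower in atf3[76] (0.0273% of all genes) and 1 in atf3[A]/+ (0.0632%), and 0 in dfoxo/+ and rel/+ (limma). Salivary gland markers, 7 in all, had medians of 0.56, 0.86, 1.92 and 1.27 against y w, with 0 called (limma). Their sum was 2538 and 567 FPKM in y w, 1233 and 2281 with atf3[76] alone, 4418 and 1198.5 in dfoxo/+, 2424 and 7832 in rel/+, and 6755 and 2189 in atf3[A]/+, so the libraries of a genotype were far apart and all genotypes overlapped with y w. The 7 fat body markers had medians of 0.22, −0.12, 0.57 and 0.74, and their sum ran from 6940.4 to 12447 FPKM in y w and from 5816 to 9428 in the other 8 libraries. The 6 epidermis markers had medians of 0.16, 0.025, −0.15 and 0.27. The part of these tissues in the members' differences was not tested.

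Other mitochondrial genes did not all lie as the members did. Of 19 genes of the citric acid cycle and pyruvate dehydrogenase found, 16 were tested, with medians of −0.31, −0.64, −0.64 and −0.53 and 0 called (limma). Mdh2, listed as CG7998, the mitochondrial malate dehydrogenase, had 208 and 130.5 FPKM in y w and 71.1 to 109 in the 6 libraries with a second allele. Regulators of mitochondrial genes and DNA upkeep had medians nearer to 0, at −0.07, −0.01, 0.11 and −0.17 over 11 genes tested. Of 9 genes for assembly of complexes I and IV, 7 were found, with medians of −0.18, −0.25, −0.26 and −0.51. Among 16 transport genes the medians were −0.16, −0.06, −0.04 and −0.41. The gene mge, which encodes a subunit of the outer membrane import channel, stood at the floor in y w and between 30.3 and 49.8 FPKM in the 8 libraries with atf3[76]. It was the 1 gene of the mitochondrial lists called (limma), higher in all 4 comparisons, where 0.0091%, 0.195%, 0.511% and 0.307% of all genes were called higher. As for Oscp, a log2 difference from a group at the floor measures no fold, and the adjusted p is set in part by the floor. The porin gene, for the pore of the outer membrane, had 190.2 and 203 FPKM in y w and 93.8 to 128 in the 6 libraries with a second allele.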

How the data were processed

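The alignment and quantification tools in the submitters' processing notes are TopHat 1.3.2 and Cufflinks 1.1.0, with the dm3 build (BDGP R5). No source used here gives the annotation or strand setting. The authors deposited FPKM per library for 14148 records, with 1 as the lowest value, plus a fold change score and a call per record, quoted only as theirs. Where records shared a symbol, the one of highest mean FPKM was kept, leaving 13995 genes, of which 2437 were at 1 throughout. Of the members, 22 overlap another gene, so their values are uncertain, among them Cyt-c-p, ox, CG3560, SdhB, CoVa, CG1746 and Oscp. Transcript lengths come from the BDGP6 annotation, by gene identifier.

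Each genotype was compared with y w on log2(FPKM + 1) in limma 3.58.1, run in R 4.3.3. Genes had to pass 1 in any of the 4 libraries, p-values were adjusted over all genes by the Benjamini-Hochberg method, and 0.05 was the threshold. The pseudocount understates differences of genes with low values. The comparisons with atf3[76] used one model of 10 libraries. The step was tested on simulated data. Other pseudocounts, filters, scalings and left-out libraries were tried. Values per library are given for members past the threshold or at the floor, and, per complex, for those of highest or lowest mean level and of most negative or positive mean difference. Replicate numbers were not used to pair libraries, except in the run with a replicate block. Members and lists were chosen with earlier results of these data known. Depth per library is unknown, and FPKM alone gives no counting interval.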

Additional observations from a re-analysis of the deposited data

How the results depend on the processing

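The count of called members was 0 lower under every alternative run. The 1 called member in dfoxo/+ and in rel/+ (Oscp) was 0 without both libraries rich in floor values, with all 5 groups in one model and among genes above the floor in every library, where Oscp is left out by construction; in dfoxo/+ it was also 0 with log2(FPKM + 10) and with no filter on low values. Leaving out 1 library each gave 0 to 1 called members in both genotypes. With median centring the member medians moved to −1.03 in dfoxo/+ and −1.06 in rel/+, with −0.01 and 0.01 over all genes. Counts of members at an unadjusted p under 0.05 against y w changed in dfoxo/+, rel/+ and atf3[A]/+ with centring. They also changed there with all 5 groups in one model and with a replicate block. These counts are left out because the share of all genes in those runs is not given. Over single libraries left out, the member median ran from −0.66 to −0.11 in atf3[76] and from −0.88 to −0.54 in rel/+ against y w, and from −0.71 to −0.14 in atf3[A]/+ against atf3[76]. Without atf3[76] replicate 2, 27 of 42 members lay below y w in atf3[76], so more members changed sign than are named here. Among the members with values given per library, those that changed sign when 1 library was left out were, in atf3[76], Pdsw (−0.71 to 0.051), CG6020 (−0.79 to 0.14), CG3621 (−0.73 to 0.096), SdhB (−0.76 to 0.15), CG3731 (−0.90 to 0.064), CG3560 (−0.79 to 0.12) and ox (−0.63 to 0.43). In the other genotypes they were ox (−0.56 to 0.49 in dfoxo/+, −0.66 to 0.40 in rel/+, −0.42 to 0.64 in atf3[A]/+) and CG3560 in atf3[A]/+ (−0.80 to 0.11). The gene ox was at 0.055 in dfoxo/+ after quantile normalization and at −0.42 in atf3[A]/+ without both libraries rich in floor values. The cause was not tested. Correlations of same-numbered libraries' deviations across genes ran from −0.51 to 0.59, so the numbers did not pair libraries alike across all genotypes. The highest were 0.59 for dfoxo/+ with atf3[A]/+ and 0.57 for y w with atf3[76]. Whether some of these libraries were processed together was not tested. With the replicate block the called members were 0, 1, 1 and 0 against y w. Without both libraries rich in floor values, atf3[76] against y w has 1 library on each side and no test. In the contrast of the 4 genotypes with atf3[76] against y w, chosen after seeing the data, the member median was −0.62 (0.22 over all genes), with 0 called and 34 members lower at an unadjusted p under 0.05 (4.65% of all genes). Without y w replicate 1 fewer members were, and the member median was −0.50 (0.32 over all genes). In atf3[76] against y w, 34 of 43 members lay below 0 without y w replicate 1. Groups of 2 libraries and unknown depth limit what can be called.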
